A study of Mus musculus with 64 samples.

Results

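The comparison set the 5 mice with the highest striatal Gabra2 RNA against the 5 with the lowest, 10 of 16 F2 mice bred from the substrains C57BL/6NJ and C57BL/6J. The mice were chosen by their measured Gabra2 count per 1000000 gene reads (CPM), with the 4 sequencing runs of each mouse summed, so the Gabra2 difference between the classes is a description and was not tested. The F2 mice were homozygous at 1 selected locus that the labels do not name. N/N mice, called binge-prone, carried the mutant allele of C57BL/6NJ there, J/J mice, called binge-resistant, the wild-type one of C57BL/6J, and the rest of the genome can differ from mouse to mouse. All were 69 to 100 days old, and striatum punches were taken on day 24, once each mouse had spent 5 min on an elevated plus maze, which measures anxiety-like behaviour. The Gabra2-high class held 4 N/N mice (2 females and 2 males) and 1 J/J female. The Gabra2-low class held 1 N/N male and 4 J/J mice (2 females and 2 males). Sex is that of the sample labels, which give 5 females and 3 males per genotype, where the series text gives 4 and 4.

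Gabra2 encodes the alpha-2 subunit of the GABA-A receptor, the chloride channel that carries most fast inhibition in the brain. A receptor is built of 5 subunits, usually alpha, beta and gamma, and the alpha subunit helps set where the receptor sits and how it responds to benzodiazepines. In mice, C57BL/6J is known to carry a small intronic deletion in Gabra2 that lowers its RNA, whereas C57BL/6NJ carries the intact gene. The genotype of each F2 mouse at Gabra2 was not analysed here.

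Gabra2 (ENSMUSG00000000560.9) spans 70957597 to 71095849 of chromosome 5 (GRCm38, minus strand). Its promoter is shown because the classes rest on the RNA made from it. The sequence is RefSeq's for GRCm38.p6, chr5:71095800-71096099, minus strand, with the 250 bases before the start in lower case and the first 50 transcribed bases in capitals.
Gabra2: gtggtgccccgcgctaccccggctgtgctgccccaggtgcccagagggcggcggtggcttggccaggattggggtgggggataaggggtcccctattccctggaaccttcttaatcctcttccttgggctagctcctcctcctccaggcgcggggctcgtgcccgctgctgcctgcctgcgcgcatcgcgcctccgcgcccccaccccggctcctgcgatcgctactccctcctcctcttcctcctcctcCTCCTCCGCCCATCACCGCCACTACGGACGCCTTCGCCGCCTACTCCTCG
The motif CG, searched on this strand (it reads the same on the other), occurred 25 times in these 300 bases, of which 70% were G or C. At least as many were found in 18.4% of 32851 promoters of the same length, and the median promoter held 7.

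In the Gabra2-high class the level was 88.6 CPM in mouse 12, 79.6 in mouse 5, 79.6 in mouse 10, 74.7 in mouse 4 and 71.1 in mouse 2. In the Gabra2-low class it was 54.5 CPM in mouse 9, 53.8 in mouse 15, 52.9 in mouse 3, 49.8 in mouse 7 and 43.8 in mouse 16. The classes were chosen not to overlap. Their means were 78.7 ± 6.58 and 50.9 ± 4.39 CPM (SD, n = 5 each), and the 6 mice between them had 59.9 ± 3.86 CPM (SD, n = 6). Just outside the classes, mouse 14 had 66.6 CPM, 4.501 below the last high mouse, and mouse 13 had 55.2 CPM, 0.723 above the first low mouse. The lower edge is therefore within counting error, with exact 95% Poisson intervals, which cover counting error only, of 52.5 to 58.1 CPM for mouse 13 and 52.1 to 57.0 CPM for mouse 9. Along the ranks the widest gap, 8.94 CPM, was between the first and the second mouse, and the next, 6.01 CPM, between mice 7 and 16. The Poisson intervals did not overlap across either gap.

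**Figure D1:**
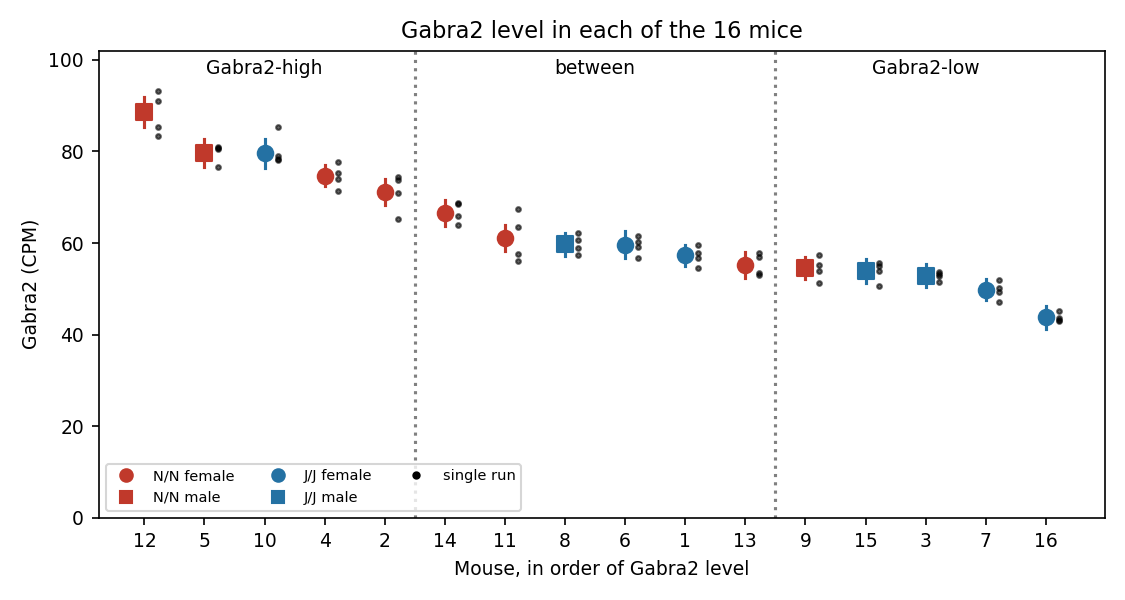
Gabra2 in CPM (vertical axis) in each of the 16 mice, in rank order (horizontal axis, mouse number). Large symbols are the summed runs with exact 95% Poisson intervals, small dots the 4 single runs, and dotted lines bound the classes; mouse 10 is the 1 J/J mouse among the high 5 and mouse 9 the 1 N/N mouse among the low 5.

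The spread of Gabra2 over the 16 mice was large for a gene of its level. Its coefficient of variation was 19.8%, against 2.24% from counting at its median read number. Among 1559 genes of similar mean level (50.4 to 78.7 CPM) the median coefficient was 6.66%, and 39 had a higher one. In each single run 4 or 5 of the high mice ranked among the top 5, and 4 or 5 of the low mice among the bottom 5. The ranking was made from the sum of these same runs, so this is not a replication. By genotype the level was 68.9 ± 11.97 CPM in N/N (SD, n = 8) and 57.1 ± 10.54 CPM in J/J (SD, n = 8). By sex it was 61.9 ± 11.2 CPM in females (SD, n = 10) and 64.9 ± 15.4 CPM in males (SD, n = 6).

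The libraries held 27405386 to 51334152 gene reads per mouse, with class medians of 31670334 (high) and 31709084 (low). Mice 10 and 11 shared a cage, and every other mouse had a cage label of its own. Because Gabra2 class and genotype overlapped so strongly, the genotype-adjusted contrast is the average of 2 comparisons, the 4 high N/N mice against mouse 9 and mouse 10 against the 4 low J/J mice. Each of these rests on 1 mouse on 1 side, so mice 9 and 10 weigh most in every value of that contrast. A fit without mouse 10 keeps only the N/N comparison, and a fit without mouse 9 only the J/J one. Such fits repeat the values within a genotype and are no separate check.

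No tested gene passed between the classes; Gabra2, which chose the mice, was left out of the test. Of 16412 tested genes, 0 (0%) had an adjusted p under 0.05 in edgeR's quasi-likelihood test with genotype as a covariate, where the smallest adjusted p was 0.9999. At an unadjusted p under 0.05 there were 170 genes (1.04%), 97 higher (0.591%) and 73 lower (0.445%) in the Gabra2-high mice, where uniform p-values would give 821. DESeq2 and limma-voom also called 0 genes, with 100 and 179 at an unadjusted p under 0.05. The fitted Gabra2 difference was 0.60 on the log2 scale (1.52-fold), and 298 other genes differed by at least as much, 11 of them with a mean of at least 10 CPM. The median difference over all tested genes was -0.0021 (log2), with its 5th and 95th percentiles at -0.22 and 0.25 and a median standard error of 0.10.

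The 2 genotypes seldom gave the same direction. Only 5345 of the tested genes (32.6%) had the same sign in the N/N and in the J/J comparison. The 2 classes did not overlap within either genotype, in the same direction in both, for 211 genes higher (1.29%) and 306 lower (1.86%). They were apart in opposite directions for 1578 genes higher in N/N and lower in J/J (9.61%) and for 1281 the reverse (7.81%). The difference between the genotypes was itself tested in a model chosen after seeing the data, and 0 genes (0%) passed, with 1814 (11.1%) at an unadjusted p under 0.05 in edgeR.

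No other GABA-A receptor subunit of the list passed the test in either direction: 0 of the 11 tested, 7 with values above 0 and 4 below, with a median of 0.018 (log2), near that of all genes. A further 4 subunits (Gabra6, Gabrp, Gabrr1 and Gabrr3) had at most 8 reads in any mouse and were not tested. Gabra3, an alpha subunit, had a log2 difference of -0.041 (95% interval -0.49 to 0.40). Gabra5, the alpha subunit best known from hippocampus, had -0.027 (-0.27 to 0.21). Both intervals lie below the fitted Gabra2 difference, but that difference was set by the choice of mice, so this is a description and no test against Gabra2. Gabrb2, a beta subunit, which forms the GABA binding site with alpha, had -0.0052 (95% interval -0.17 to 0.16). Gabrd, the delta subunit of extrasynaptic receptors, had -0.031 (-0.24 to 0.18), and Gabrg3, a gamma subunit, had 0.024 (-0.26 to 0.31). The 2 largest values, 0.64 for Gabre and 0.37 for Gabrq, came from genes at or below 0.51 CPM and had intervals from -1.04 to 2.31 and from -0.80 to 1.55. Gabre passed the read filter only through mouse 12, a Gabra2-high mouse.

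**Figure D2:**
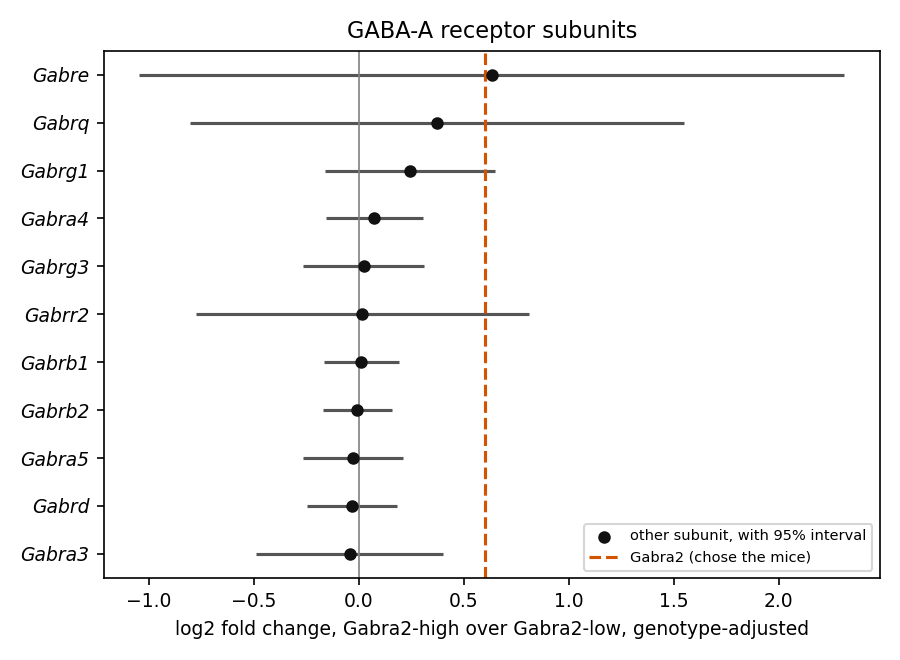
Genotype-adjusted log2 fold change, Gabra2-high over Gabra2-low (horizontal axis), for 11 other tested GABA-A receptor subunits (rows), with 95% intervals; the dashed line is Gabra2, which chose the mice. Every interval includes 0.

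Per kilobase of exon and over the 16 mice, Gabra4 stood at 36.9 ± 4.603 CPM per kb, Gabra3 at 31.1 ± 7.06, Gabra5 at 12.6 ± 2.04 and Gabra2 at 8.24 ± 1.64 (SD, n = 16). The spreads of Gabra4 and Gabra3 overlapped, and their difference within the same mice was not tested. Gabra2 had a mean of 10.3 CPM per kb in the high class and 6.67 in the low class, so it stayed below Gabra5, at 12.58 and 12.99, in both. This order rests on all annotated exons joined, 7.64 kb for Gabra2 and 2.974 kb for Gabra5, and the annotation used for counting is not given. In plain CPM Gabra2 was the higher, with means of 78.72 (high) and 50.95 (low) against 37.41 and 38.63 for Gabra5.

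Genes of the same pathway were counted from lists. None of the 19 tested genes of receptor clustering and trafficking passed (11 above 0, 8 below, median log2 difference 0.021, and -0.0020 without mouse 9), and the smallest p was that of Trak2, a kinesin adaptor (log2 difference 0.13, SE 0.068). None of the 8 genes of GABA synthesis, packaging, uptake and breakdown passed (6 above, 2 below, median 0.027, and -0.023 without mouse 9), and Abat, which breaks GABA down, had 0.074 (SE 0.086). GABA-B receptors and their auxiliary subunits gave 0 of 5 (3 above, 2 below, median 0.035). Neuronal chloride transport gave 0 of 6 (3 above, 3 below, median -0.0029), with Slc12a2, the chloride importer NKCC1, at -0.085 (SE 0.092).

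The chromosome 5 neighbours of Gabra2 did not pass the test either. Gabra2 sits in a cluster with Gabrg1, Gabra4 and Gabrb1, which encode gamma-1, alpha-4 and beta-1 subunits and lie within 562 kb. Gabrg1, 115 kb away, measured 62.3, 39.4, 46.9, 39.8 and 44.3 CPM in the high mice and 36.6, 40.6, 41.2, 34.8 and 54.2 CPM in the low mice, both in Gabra2 rank order. The classes overlapped, with a log2 difference of 0.24 (SE 0.18, unadjusted p 0.209 in edgeR). Gabra4 had 233 ± 27.3 against 225 ± 21.02 CPM (SD, n = 5), a log2 difference of 0.074 (SE 0.11). That value joined -0.19 in N/N and 0.33 in J/J, without overlap in either. The fits without mouse 10 (-0.19) and without mouse 9 (0.34) repeat these 2 comparisons. Gabrb1 had 23.4 ± 2.05 against 23.3 ± 0.813 CPM (SD, n = 5), a log2 difference of 0.013 (SE 0.082). Gabra4 and Gabrb1 overlap head to head, and the strand setting of the counting is not given.

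Within 5 Mb, 45 of 61 listed genes were tested and 0 passed, 27 with values above 0 and 18 below, with a median log2 difference of 0.013. The median was 0.016 over the 17 tested within 2 Mb, 0.011 over 86 within 10 Mb and 0.011 over 130 within 20 Mb. Beyond 20 Mb it was -0.0061 over 886 genes of the chromosome, so the windows differed little from it or from all genes. In those 5 Mb, 1 gene had an unadjusted p under 0.05. Cox7b2, a subunit of mitochondrial cytochrome c oxidase best known from testis, had 0.357 ± 0.105 against 0.488 ± 0.145 CPM (SD, n = 5) and did not pass after adjustment (log2 difference -0.83, SE 0.29, unadjusted p 0.0140 in edgeR). Next in order of p were Kctd8, a GABA-B receptor auxiliary subunit, at -0.19 (SE 0.10), Rbm47, an RNA-binding protein, at -0.54 (SE 0.35), and Commd8 at 0.090 (SE 0.061).

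**Figure D3:**
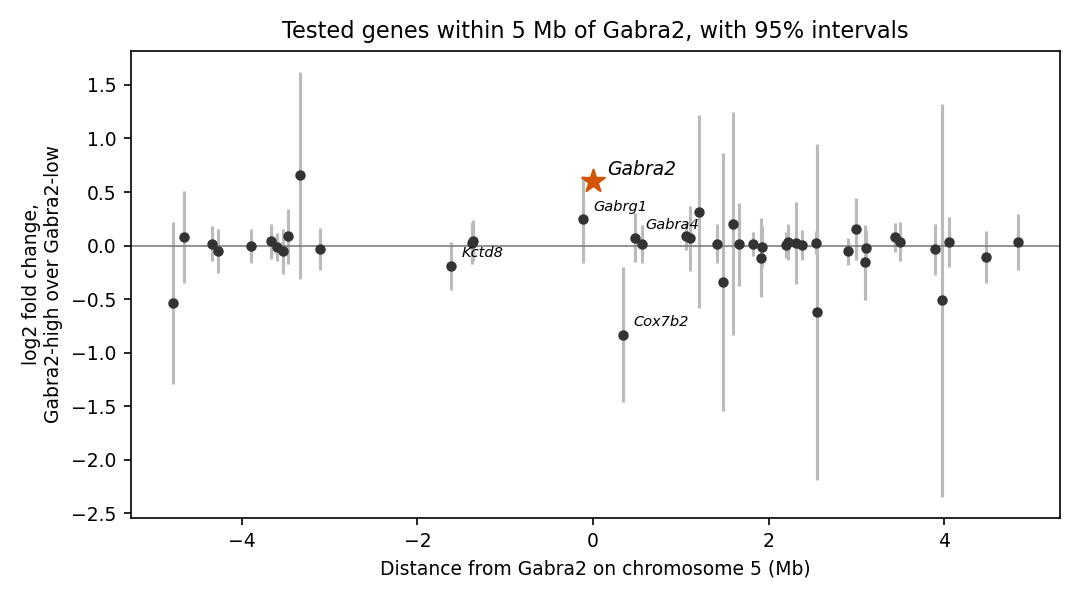
Genotype-adjusted log2 fold change, Gabra2-high over Gabra2-low (vertical axis), of the 45 tested genes within 5 Mb of Gabra2, by distance from it in Mb (horizontal axis), with 95% intervals. Gabra2 is the star; 0 of the 45 passed the test.

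The make-up of the punch was read from Slc17a7, the vesicular glutamate transporter of cortical neurons, and Ppp1r1b, the DARPP-32 protein of striatal medium spiny neurons. In bulk tissue, fewer cells of a type and less RNA per cell cannot be told apart. Both markers were present in all 16 mice, Slc17a7 from 255 to 1214 CPM and Ppp1r1b from 598 to 1301 CPM, so the samples hold striatal neurons with a variable amount of cortical transcript. Slc17a7 measured 676, 606, 569, 945 and 757 CPM in the high mice and 552, 876, 1009, 716 and 834 CPM in the low mice, in Gabra2 rank order. Those ranges overlapped, with a log2 difference of -0.076 (SE 0.25, unadjusted p 0.764 in edgeR). Ppp1r1b measured 1040, 1147, 1039, 751 and 1042 CPM in the high and 1185, 1075, 780, 1062 and 780 CPM in the low mice. Again the classes overlapped (log2 difference -0.039, SE 0.17, unadjusted p 0.826 in edgeR).

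The average near 0 joined opposite values in the genotypes. For Slc17a7 the log2 difference was 0.41 in N/N, where mouse 9 was below all 4 high mice, and -0.58 in J/J, where mouse 10 was below all 4 low mice. Without mouse 9 the fitted value was -0.58, and without mouse 10 it was 0.43. Ppp1r1b had -0.27 in N/N against 0.19 in J/J, with -0.25 fitted without mouse 10 and 0.18 without mouse 9. Summed over the 12 cortical markers, mice 11, 9 and 10 had the lowest levels of the 16 (638, 1041 and 1045 CPM), so both mice on which the contrast rests had low cortical marker levels. Their part in the other results was not tested beyond fits with Slc17a7 or Ppp1r1b as a term, in each of which 0 genes were called (186 and 204 at an unadjusted p under 0.05).

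**Figure D4:**
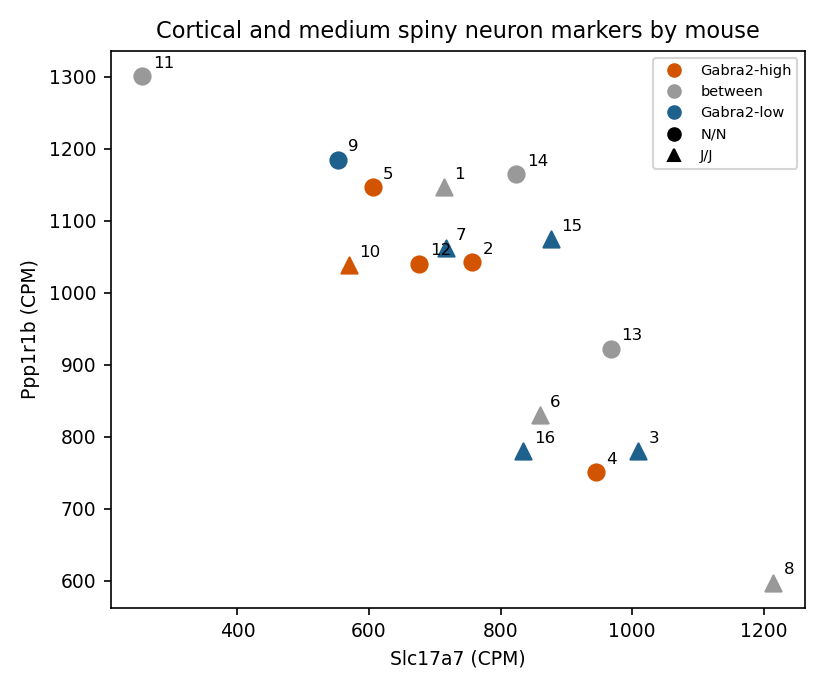
Ppp1r1b (vertical axis) against Slc17a7 (horizontal axis), both in CPM, in the 16 mice, numbered; colour gives the Gabra2 class and shape the genotype. Mouse 9 (Gabra2-low) and mouse 10 (Gabra2-high) are both among the 3 mice of lowest Slc17a7.

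Several lists of cell type markers also had medians of opposite sign in the 2 genotypes. The medium spiny neuron list had a median log2 difference of 0.036 (0 of 19 passed, 15 above 0), made of -0.29 in N/N (1 of 19 above 0) and 0.27 in J/J (18 of 19). The cortical list had -0.075 (0 of 12 passed, 3 above 0), made of 0.13 in N/N and -0.24 in J/J. Meningeal fibroblast markers were at 0.38 in N/N and -0.38 in J/J, and -0.024 together (0 of 6). Oligodendrocyte precursors had 0.033 (0 of 6 passed), made of 0.28 in N/N (6 of 6 above 0) and -0.18 in J/J (1 of 6). Astrocytes had 0.054 (0 of 11), made of 0.11 and -0.072, and endothelium -0.022 (0 of 8), made of 0.083 and -0.11. Thalamic neurons had -0.038 (0 of 6), made of 0.17 and -0.24 (0 of 6 above 0). Striatal interneurons had -0.066 (0 of 14, 12 below 0), with 0.016 in N/N and -0.13 in J/J. Choroid plexus and ependyma had 0.18 (0 of 7), with 0.25 in N/N and -0.0083 in J/J. Myelinating oligodendrocytes had -0.085 (0 of 16, 15 below 0), with -0.20 in N/N and 0.0038 in J/J, and with no genotype term 14 of 16 were above 0 (median 0.040). Microglia had 0.099 (0 of 10, 9 above 0), with 0.11 in N/N and 0.019 in J/J.

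These list medians depended on mice 9 and 10. Without mouse 10 the fitted median was -0.28 for medium spiny neurons, 0.16 for the cortical list, 0.44 for meningeal fibroblasts, 0.082 for endothelium, 0.18 for thalamic neurons and 0.028 for interneurons, each of the opposite sign to the value with all 10 mice. Without mouse 9 the sign changed for precursors (-0.17), astrocytes (-0.063), choroid plexus and ependyma (-0.041) and myelinating oligodendrocytes (0.0053). Leaving out other mice changed signs too. Meningeal fibroblasts had 0.11 without mouse 16, 0.015 without mouse 15, 0.0077 without mouse 12 and 0.0067 without mouse 5. Choroid plexus and ependyma had -0.0044 without mouse 12, precursors -0.0078 without mouse 2 and endothelium 0.013 without mouse 15. Among blood markers only Alas2, an enzyme of haem synthesis, was tested (0.35, SE 0.21), and Hba-a1, Hba-a2 and Hbb-b1 were listed at 0 in all mice.

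The immediate early genes, a class induced rapidly when neurons fire, had the lowest list median. None of 14 passed, but all 14 had values below 0, with a median log2 difference of -0.37. Nr4a1, a nuclear receptor induced by activity, had the smallest p of them (-0.52, SE 0.25, unadjusted p 0.0608 in edgeR). Arc, which acts in synaptic plasticity, had -0.47 (SE 0.26), Egr1, a zinc finger factor, -0.30 (SE 0.17), and Fos, the classic activity marker, -0.42 (SE 0.42). Fos measured 51.3, 35.8, 14.3, 33.2 and 46.0 CPM in the high mice and 34.2, 25.6, 47.0, 20.9 and 38.1 CPM in the low mice, so mouse 10 was the lowest of the 10. The J/J median was -0.74 (14 of 14 below 0) and the N/N median -0.0033 (7 of 14). The fit without mouse 10, which keeps only the N/N comparison, had a median of 0.0026. With no genotype term the list median was 0.032. It was 0.00052 with the 4 highest against the 4 lowest mice of each genotype, a split chosen after seeing the data. Mouse 10 was the lowest or second lowest of the 16 mice in 13 of the 14 genes. Summed, the list stood at 540 CPM in mouse 10 and 537 CPM in mouse 11, which shared its cage, and at 681 to 1300 CPM in the other mice.

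**Figure D5:**
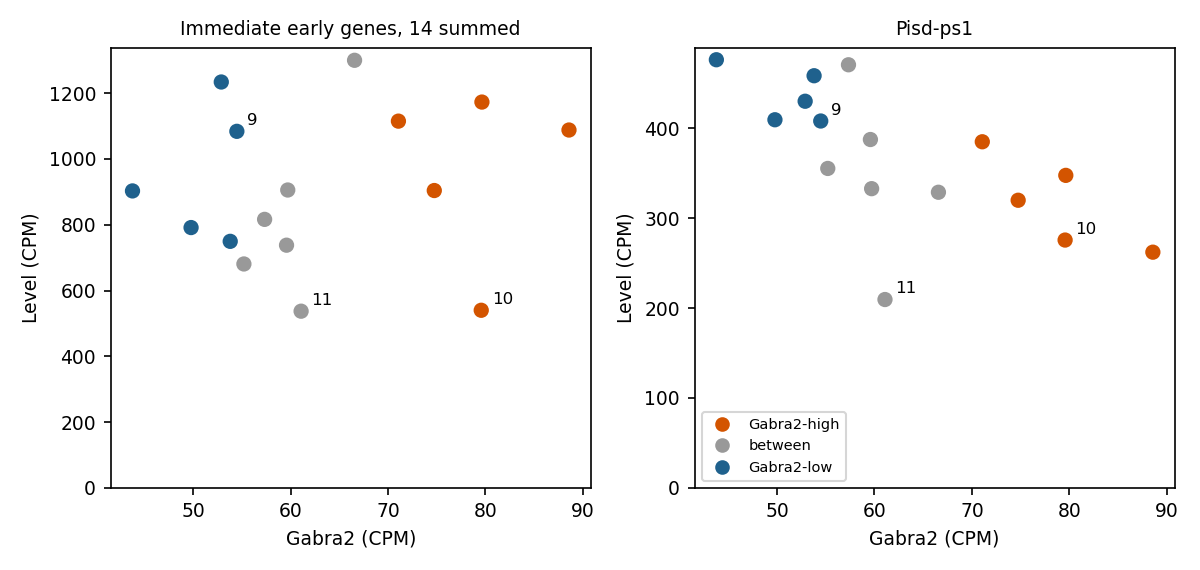
Summed level of 14 immediate early genes (left) and level of Pisd-ps1 (right), in CPM (vertical axes), against Gabra2 (horizontal axes) in the 16 mice, coloured by Gabra2 class. Mice 10 and 11 have the 2 lowest early gene sums, and the 5 high mice lie below the 5 low mice for Pisd-ps1.

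The 15 genes of smallest p are given as values, since none passed. First was Pisd-ps1, a transcribed pseudogene of the phosphatidylserine decarboxylase gene on chromosome 11 from 3125904 to 3131004. It measured 262, 348, 276, 320 and 385 CPM in the high mice and 408, 459, 430, 410 and 476 CPM in the low mice. Every high mouse was below every low mouse, which held for 36 genes (0.219%) in this direction and 17 (0.104%) in the other. Its log2 difference was -0.49 (SE 0.13, unadjusted p 0.0027 and adjusted p 0.9999 in edgeR), -0.33 in N/N and -0.68 in J/J. Pisd-ps2, a copy on chromosome 17, had 33.9 ± 4.89 against 45.1 ± 3.35 CPM (SD, n = 5; log2 difference -0.45, SE 0.12). The parent gene Pisd, which makes phosphatidylethanolamine in mitochondria, was looked up after these values were seen. Pisd lies 38172 kb from Gabra2 on chromosome 5 and had 59.1 ± 4.01 against 67.5 ± 3.52 CPM (SD, n = 5; log2 difference -0.22, SE 0.072). How alike these copies are in sequence was not measured here. Reads that did not align uniquely were left out, so reads shared between copies may be missing, and Pisd-ps3 had 0 reads in all mice. The 3 values should not be taken as independent. Among the 6 mice between the classes Pisd-ps1 ran from 210 to 471 CPM, across the range of both.

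The other 13 were mostly low. Fbxo30, an F-box ubiquitin ligase subunit, had 14.3 ± 1.06 against 16.5 ± 2.46 CPM (SD, n = 5; log2 difference -0.33, SE 0.097). Traf3ip2, an adaptor of interleukin-17 signalling, had 6.99 ± 1.04 against 8.64 ± 0.889 CPM (SD, n = 5; -0.41, SE 0.13). Log2 differences were -0.36 for the adhesion receptor Gpr133, 0.39 for the fatty acid transport protein Slc27a3, 0.47 for the phospholipase Pla2g5, 0.52 for Mpzl3 and -0.45 for the NADPH oxidase organiser Noxo1. Lower still were Hist1h1e, a linker histone (0.55), Arl11 (0.74) and the vomeronasal receptor Vmn2r27 (-1.25). Cga, a pituitary hormone subunit, had 18 reads in the 10 mice, 13 of them in mouse 10. Stk31 had 39, 15 of them in mouse 9, and the kinase Dyrk4 had 2 to 13 per mouse. Each passed the read filter through 1 class only, high for Cga and low for Stk31 and Dyrk4. Their fitted values are therefore not given.

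Over all 16 mice the genes whose log2 CPM ran most like Gabra2 were Prdm16, a zinc finger regulator (Pearson's r 0.82), Sgce, epsilon-sarcoglycan (0.77), Gsx1, a homeobox factor (0.72), Dnajc14 (0.69) and Mrps2, a mitochondrial ribosomal protein (0.68). Those most opposed were Tex13 (-0.83), Rdh9, a retinol dehydrogenase (-0.81), Baat1 (-0.74), Slc22a13b-ps (-0.73) and Srcrb4d (-0.73). They were picked as extremes of all tested genes over mice that share the level used to rank them, so the values are a description. Gsx1, Tex13, Baat1, Slc22a13b-ps and Srcrb4d were low, at or below 1.345 CPM in every mouse. Gsx1 (3 to 17 reads per mouse) passed the read filter only through Gabra2-high mice. Over the 6 mice between the classes, part of the 16, r was 0.70, 0.68, 0.25, 0.065 and 0.75 for the first 5 genes. For the opposed genes it was -0.60, -0.69, -0.95, -0.80 and -0.68, in the same order. Spearman's rho, which uses ranks, was weaker for most of them over these 6 mice. It was 0.37, 0.71, 0.26, 0.20 and 0.43 for the first 5 genes. For the opposed genes rho was -0.26, -0.26, -0.83, -0.89 and -0.43. Prdm16 measured 25.8, 18.4, 19.1, 16.34 and 18.3 CPM in the high mice and 16.3, 16.31, 16.2, 15.7 and 13.7 CPM in the low mice, just without overlap, with a log2 difference of 0.29 (SE 0.14).

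Genes known to differ between the 2 substrains were looked at because F2 mice can carry either allele. None of 5 passed. Log2 differences were 0.022 for Nnt, the mitochondrial transhydrogenase disrupted in C57BL/6J (SE 0.18), -0.18 for Wdfy1, an endosomal adaptor (SE 0.30), 0.39 for Ide, the insulin-degrading enzyme (SE 0.28), 0.36 for Crb1, a retinal polarity gene (SE 0.59), and -0.013 for Cyfip2, an actin regulator (SE 0.087). Entpd4 was listed at 0 in all mice.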

How the data were processed

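Raw read counts per gene, 1 table per mouse and run (64 in all), were deposited by the authors. The reads (50 bp, single-end, stranded kit) were aligned to mm10 with TopHat2 2.1.0 and counted with HTSeq 0.6.1p1, per the submitters' processing notes, which also list FastQC 0.11.3, edgeR 3.8.6 and limma 3.22.7; what each was used for is not stated there. Annotation release and strand setting are not given in the sources used here. Summary rows (19.95% no feature, 21.84% not unique, 0.78% ambiguous) were left out and runs were summed, with 27405386 to 51334152 gene reads per mouse.

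CPM is the count per 1000000 gene reads. The fit used edgeR 4.0.16 (R 4.3.3): robust quasi-likelihood F test, TMM factors (0.993 to 1.02), filterByExpr (minimum count 10, total 15) over genotype by class, 7 residual degrees of freedom, and Benjamini-Hochberg adjustment over all tested genes but Gabra2 with a threshold of 0.05. A single mouse above the filter's cut was enough to admit a gene, because the smallest group held 1 mouse. Values within a genotype are differences of mean log2 CPM (prior count 2). Positions are from GENCODE M21, or from RefSeq GRCm38.p6 for symbols that it lacks. The script was tested on simulated data without a genotype effect, which checks the code and not the call of 0 genes.

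Members and 20 gene lists were chosen with earlier results of these data known. Named were Gabra2, its 3 cluster neighbours and the 4 others of smallest p within 5 Mb, the 2 composition markers, the 15 genes of smallest p (as fewer than 10 passed), the smallest p of each list, the tested GABA-A subunits of the list, 6 substrain genes, and the 5 highest and 5 lowest correlations; symbols without a gene name were skipped. A few genes are not reported here and were left out of the lists. Alternatives were other class sizes, covariates, scalings, filters and runs, DESeq2 1.42.0, limma 3.58.1 and leaving out each mouse. A split within each genotype and the interaction were added after seeing the data.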

Additional observations from a re-analysis of the deposited data

Results flagged for a closer look

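In 9 of 128 groups of 5 mice looked at, 1 mouse stood apart from the other 4 by Dixon's ratio (critical value 0.71), and chance gives about 1 in 20. Among the Gabra2-high mice these were Cga in mouse 10 (0.415 CPM), Hist1h1e in mouse 10 (2.14), Fbxo30 in mouse 12 (16.1), Wdfy1 in mouse 12 (64.7) and Ppp1r1b in mouse 4 (751). Among the Gabra2-low mice they were Slc27a3 in mouse 9 (2.39 CPM), Dyrk4 in mouse 3 (0.410), Ide in mouse 15 (80.6) and Prdm16 in mouse 16 (13.7).

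For 2 of 63 named genes the mice of the 2 genotypes differed in opposite directions without overlap. Over all 16412 tested genes such opposite separation was common, with 1578 (9.61%) higher in N/N and lower in J/J and 1281 (7.81%) the reverse, so it is not particular to these 2. Slc17a7 was higher in the high mice of N/N and lower in that of J/J, with a difference of 1.02 in log2 fold change between the genotypes (unadjusted p 0.0113, adjusted p 0.399 in edgeR). Gabra4 was lower in N/N and higher in J/J, with a difference of -0.52 (unadjusted p 0.00785, adjusted p 0.399 in edgeR). Neither passed the adjusted test, and each rests on mouse 9 in N/N and mouse 10 in J/J.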

How the results depend on the processing

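The count of called genes was 0 under all 30 alternatives. Genes at an unadjusted p under 0.05 numbered 170 in the reported fit and 100 (DESeq2) to 318 elsewhere, apart from 454 with 8 against 8 mice, 491 without mouse 10, 1245 with 4 against 4 mice and 1251 without mouse 9; the last 2 leave mouse 10 alone to set the contrast. Of 1850 values of named genes under alternatives 1716 kept their sign, and of the 134 that did not, 90 had both values within 1 SE of 0. Some of the kept signs were fixed in advance. The threshold of 0.1 reused the reported fit, and the fit without robust estimation gave the same list medians as that fit. The median of the neighbours within 5 Mb moved in every alternative by less than the SD of their single-gene values. That SD is a wide mark for a median over 45 genes, so this is a weak check. No paired analysis was possible because mouse numbers are not shared between groups. Fits without mouse 9 or without mouse 10 keep the comparison of 1 genotype only. The causes of the sign changes were not tested.

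Values of changed sign (log2 difference) were as follows. With the 4 highest against the 4 lowest of each genotype (chosen after seeing the data) they were -0.35 for Hist1h1e, 0.10 for Kctd8, 0.082 for Slc17a7, -0.11 for Trak2, -0.020 for Abat, -0.052 for C1ql1, -0.085 for Aqp4, -0.058 for C1qa, 0.018 for Ramp3, -0.13 for Col1a1, 0.044 for Gabra3, 0.15 for Gabra5, 0.059 for Gabrb2, -0.20 for Nnt. With 4 against 4 mice they were 0.18 for Ppp1r1b, 0.00043 for Slc12a2, 0.041 for Aspa, -0.032 for Aqp4, -0.016 for Pecam1, -0.35 for Col1a1, 0.049 for Gabrb2, 0.044 for Gabrd, -0.43 for Gabrq, -0.40 for Gabrr2, -0.038 for Nnt, 0.033 for Wdfy1, -0.18 for Crb1. With 6 against 6 they were 0.086 for Kctd8, 0.057 for Ppp1r1b, -0.018 for Trak2, -0.17 for Aqp4, -0.012 for C1qa, -0.025 for Pecam1, -0.55 for Col1a1, 0.098 for Gabra5, 0.056 for Gabrb2, 0.025 for Gabrd, -0.056 for Nnt, 0.059 for Cyfip2. With 8 against 8 they were -0.013 for Slc27a3, 0.0051 for Gpr133, 0.085 for Kctd8, -0.0019 for Trak2, -0.16 for Aqp4, -0.049 for C1qa, -0.051 for Pecam1, -0.45 for Col1a1, 0.066 for Gabra3, 0.19 for Gabra5, 0.12 for Gabrb2, -0.13 for Gabrr2, -0.081 for Nnt, 0.047 for Cyfip2. With Gabra2 as a continuous term they were -0.023 for Hist1h1e, 0.052 for Kctd8, 0.0076 for Ppp1r1b, -0.051 for Trak2, -0.18 for Aqp4, -0.029 for C1qa, -0.036 for Pecam1, -0.55 for Col1a1, 0.14 for Gabra5, 0.036 for Gabrb2, 0.0085 for Gabrd, -0.099 for Gabrr2, -0.14 for Nnt, 0.047 for Cyfip2. With 3 classes over 16 mice they were 0.043 for Slc17a7, -0.0079 for Trak2, -0.021 for Aqp4, -0.057 for Col1a1, 0.015 for Gabra3, 0.11 for Gabra5, 0.042 for Gabrb2, -0.15 for Nnt. With no genotype term they were 0.042 for Ppp1r1b, -0.23 for Nnt. With a sex term they were 0.033 for Ppp1r1b, -0.046 for Col1a1, 0.030 for Gabra5, -0.057 for Gabrg3, -0.34 for Gabrr2, 0.029 for Cyfip2. With a Slc17a7 term they were 0.00025 for Gabra3, 0.0028 for Gabra5, -0.0031 for Gabrg3, -0.00055 for Gabrr2. With a Ppp1r1b term they were -0.022 for Gabrr2. In the first 2 runs they were -0.011 for Gabrb1, 0.012 for Gabra3, 0.083 for Gabra5, -0.40 for Gabrr2, -0.017 for Nnt, 0.014 for Slc22a13b-ps. In the last 2 runs they were 0.011 for Gabrb2, -0.0050 for Gabrg3. Leaving out 1 mouse at a time gave ranges, mostly bounded by the fits without mouse 9 and without mouse 10, of -0.030 to 0.22 for Aqp4, -0.46 to 0.043 for Aspa, -0.35 to 0.58 for Col1a1, -0.18 to 0.89 for Crb1, -0.050 to 0.026 for Cyfip2, -0.16 to 0.081 for Gabra3, -0.19 to 0.34 for Gabra4, -0.18 to 0.13 for Gabra5, -0.056 to 0.084 for Gabrb1, -0.059 to 0.050 for Gabrb2, -0.11 to 0.045 for Gabrd, -0.14 to 0.19 for Gabrg3, -0.42 to 1.08 for Gabrq, -0.40 to 0.32 for Gabrr2, -0.069 to 0.28 for Gnal, -0.055 to 0.090 for Nnt, -0.015 to 0.10 for Pecam1, -0.25 to 0.18 for Ppp1r1b, -0.65 to 0.14 for Rprm, -0.17 to 0.0018 for Slc12a2, -0.58 to 0.43 for Slc17a7, -0.39 to 0.034 for Wdfy1.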
